A study of Mus musculus with 18 samples.

Results

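The comparison was of endometriotic lesions grown from 2 kinds of uterine tissue: lesions of ERBOE tissue, described as overexpressing oestrogen receptor beta (ERβ), and lesions of PRCre tissue, the Cre line used as the control. Its members were the 6 arrays titled as ectopic lesions, 3 of each genotype, of 18 arrays in the whole series. The remaining arrays, of eutopic endometrium and of uterus from both genotypes, entered the same fit. Their mice are described with the comparison between tissues. The source field of the ERBOE lesion arrays speaks of mice without endometriosis, against their titles and the design text, which were followed here. The ERBOE and PRCre/+ donors were 8 weeks old, and a punch of 2 mm was taken from their uteri. One piece was implanted in each intact wild-type C57BL/6J mouse, also 8 weeks old, and lesions were taken at estrus 4 weeks after surgery. Each genotype had 9 such mice, whose RNA was pooled 3 by 3, so 1 array carried 1 pool. The labels do not say how the pools were drawn beyond that, and p-values measure the spread between pools. In both genotypes Cre comes from the progesterone receptor locus, which is active in uterine epithelium, stroma and muscle, and the host cells that enter a lesion (blood vessels, leukocytes, attached fat) are wild type in both. In such bulk tissue fewer cells of a type and less RNA per cell cannot be told apart.

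Endometriosis is the growth of endometrium outside the uterus, commonly on the peritoneum and on abdominal fat. The implants depend on oestrogen, recruit vessels and nerves, and are patrolled by macrophages and natural killer (NK) cells, lymphocytes that kill cells lacking the usual self markers. ERβ is one of the 2 nuclear oestrogen receptors and is more abundant in human endometriotic stroma than in normal endometrium. Fat cells and some epithelia make fatty acids from citrate: citrate leaves the mitochondrion, is split into acetyl-CoA, which is carboxylated and then condensed into palmitate with NADPH as the reductant.

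Values are log2 intensities relative to the array's 75th percentile signal, so 0 is that percentile. Lesion arrays had 75th percentile signals of 511.8 to 714.5, between 58.3% and 74.1% of probes well above background, and 0 saturated spots. They correlated at 0.928 to 0.970, with a median of 0.951 within genotypes and 0.955 between them. The first principal component, 35% of their variance, set PRCre pool 3 and ERBOE pool 2, which shared slide 1, apart from the other 4 arrays. PRCre pools 1 and 2 and ERBOE pool 3 were on slide 2, and ERBOE pool 1 was alone on slide 3. Markers of the labelled tissue were present in all 6. Summed signals, in multiples of the 75th percentile, were 482 to 599 in PRCre and 508 to 568 in ERBOE for 20 endometrial stroma genes. For 25 epithelial genes they were 135 to 391 against 178.5 to 243. Krt18, an epithelial keratin gene, read 6.22, 5.09 and 6.55 in PRCre pools 1 to 3 and 5.96, 6.58 and 5.86 in the ERBOE pools.

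Esr2, the gene of ERβ, read 2.53, 2.39 and 2.46 in PRCre lesions and 2.13, 2.09 and 2.39 in ERBOE lesions. The difference was -0.25 ± 0.20 (SE; adjusted p = 0.994, limma), and the groups overlapped, so the label was not visible in this probe. The labels do not place the probe relative to the construct, and the value checks nothing about overexpression. Esr1 and Pgr, the genes of oestrogen receptor alpha and the progesterone receptor, differed by -0.18 ± 0.33 and -0.21 ± 0.59, each with overlapping groups. Of 11 steroid receptor and coregulator genes tested, 3 read higher in ERBOE and 0 had an unadjusted p under 0.05.

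Across all 33179 features tested, 0 passed an adjusted p of 0.05 (0%; smallest 0.0754; Benjamini-Hochberg over all features, limma), so no gene below is called changed. At an unadjusted p under 0.05 there were 1467 features, 4.42% of those tested, with 699 higher in ERBOE (2.11%) and 768 lower (2.31%). With normexp background correction the split was 860 higher and 454 lower. The 3 ERBOE values lay wholly above the 3 PRCre values for 5.16% of features and wholly below for 5.9%. ERBOE read higher in 43.9% of features and lower in 56.1%, and the median difference over all of them was -0.06. These shares are the background for each list below, whose members are described by counts and medians and not tested as a set.

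Genes that make fatty acids and triglycerides read higher in every ERBOE pool, by list medians of 0.88, 1.24 and 0.94 relative to the PRCre mean. Of 22 tested, 20 read higher, 12 had an unadjusted p under 0.05 in that direction and 0 in the other, and 14 had groups that did not overlap. The median difference was 1.00 log2 units. It was 1.00 within slide 1 and 1.05 within slide 2, and lay between 0.93 and 1.09 when any 1 lesion array was left out.

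The enzymes of the palmitate route are taken in order, and the starts of 3 of them are shown because the genes read higher together. Printed are the bases just before the RefSeq transcription start (assembly GRCm38.p6), 5′ to 3′ on the gene's strand, with capitals for CCAAT, the box bound by NF-Y, on either strand. Fasn lies at chr11:120824548-120824667, minus strand, Slc25a1 at chr16:17928220-17928369, minus strand and Acss2 at chr2:155517923-155518042, plus strand.
Fasn: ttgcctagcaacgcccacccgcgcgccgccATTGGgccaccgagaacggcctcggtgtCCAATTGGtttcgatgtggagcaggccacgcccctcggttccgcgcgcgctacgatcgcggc
Slc25a1: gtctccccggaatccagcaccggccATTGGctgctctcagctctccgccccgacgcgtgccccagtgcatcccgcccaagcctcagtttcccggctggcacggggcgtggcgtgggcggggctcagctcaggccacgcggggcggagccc
Acss2: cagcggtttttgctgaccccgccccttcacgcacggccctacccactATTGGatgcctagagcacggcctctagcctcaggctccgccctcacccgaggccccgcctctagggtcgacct
The capitals CCAATTGG in Fasn are 2 matches that overlap, 1 on each strand. In windows from 250 bases before to 50 after the start, CCAAT or its complement was in 13 of the 22 promoters found for 16 genes of the list, some genes having several starts (59.1%), and in 37.4% of all 32851. The E-box CACGTG was in 3 of them (13.6%, against 7.15%), TCACNCCAC, a sterol regulatory element, in 1 (4.55%, against 1.24%), and the palindromic oestrogen response element in 0 (against 0.07%). Mlxipl, whose brightest probe read lower in ERBOE, held the TCACNCCAC match and 1 of the E-box matches. A match describes letters in this window and is not evidence of binding.

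Slc25a1, the carrier that exports citrate from mitochondria, read 0.91, 0.86 and 1.56 in PRCre and 1.97, 2.35 and 2.07 in ERBOE, a difference of 1.03 ± 0.26. Acly, which splits citrate into acetyl-CoA, read 3.91, 3.58 and 3.96 against 4.64, 5.05 and 4.37, a difference of 0.87 ± 0.23. Acss2, which makes acetyl-CoA from acetate, read -0.01, -0.01 and 0.47 against 1.12, 1.63 and 1.1, a difference of 1.13 ± 0.32. In all 3 genes every ERBOE pool was above every PRCre pool, and ERBOE pool 2 was the highest. Acaca, the carboxylase that commits acetyl-CoA to fatty acid synthesis, read 2.45, 2.70 and 2.61 in PRCre and 4.05, 4.35 and 4.22 in ERBOE, a 3.08-fold difference (log2 1.63 ± 0.45). Fasn, the fatty acid synthase gene, read 5.19, 5.12 and 5.29 against 6.76, 6.95 and 6.83, a 3.13-fold difference (1.65 ± 0.47). The pools of each genotype lay close together and far from the other genotype for both genes, and the 4 Acaca probes gave differences from 1.55 to 2.32.

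The standard errors of Fasn and Acaca come from all 18 arrays and are larger than the lesions' own spread. Fasn had an unadjusted p of 0.00349 (adjusted p = 0.891) over 18 arrays and of 0.000118 (adjusted p = 0.746) with the 6 lesion arrays alone. Without PRCre uterus replicate 1, the dimmest array of the series, the lesion difference of Fasn passed (adjusted p = 0.0263, limma; range over the alternatives 0.0263 to 1.00).

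Me1, the malic enzyme gene that supplies NADPH, read 2.33, 1.38 and 1.60 in PRCre and 3.14, 3.47 and 3.13 in ERBOE. Its difference of 1.47 ± 0.28 (adjusted p = 0.328) was the seventh smallest p of the comparison. Tkt, the transketolase gene of the pentose phosphate pathway, read 4.47, 4.44 and 4.72 against 5.37, 5.73 and 5.20, a difference of 0.89 ± 0.22. The groups did not overlap in either gene. Scd1, which desaturates stearate, read 2.37, 3.70 and 1.00 in PRCre and 4.51, 4.42 and 4.79 in ERBOE, so its PRCre pools were far apart and its ERBOE pools close together. Elovl6, which elongates palmitate, and Srebf1, the gene of the transcription factor SREBP-1 that drives these genes in liver and fat, differed by 1.11 ± 0.47 and 0.77 ± 0.34.

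Enzymes that turn fatty acids into triglyceride were similar in sign and more mixed in size. Agpat2, which adds the acyl chain that makes phosphatidic acid, read 3.21, 3.42 and 3.11 in PRCre and 3.94, 4.37 and 4.25 in ERBOE (difference 0.95 ± 0.21, adjusted p = 0.538). Dgat1, which makes triglyceride from diglyceride, differed by 0.88 ± 0.28, and Thrsp, a lipogenic regulator of fat and liver, by 1.53 ± 0.51. Both had groups that did not overlap. Gpam, the acyltransferase of the first step, read 0.24 ± 0.22 and Mlxipl, the gene of the carbohydrate-responsive factor ChREBP, -0.36 ± 0.31, with overlapping groups. Each has another probe that read higher, by 1.28 for Gpam and 1.30 for Mlxipl, and with the mean of all probes of a gene 21 of the 22 read higher. Mogat2, a monoacylglycerol acyltransferase best known in intestine, was the other member that read lower, at -0.52 ± 0.54.

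**Figure D1:**
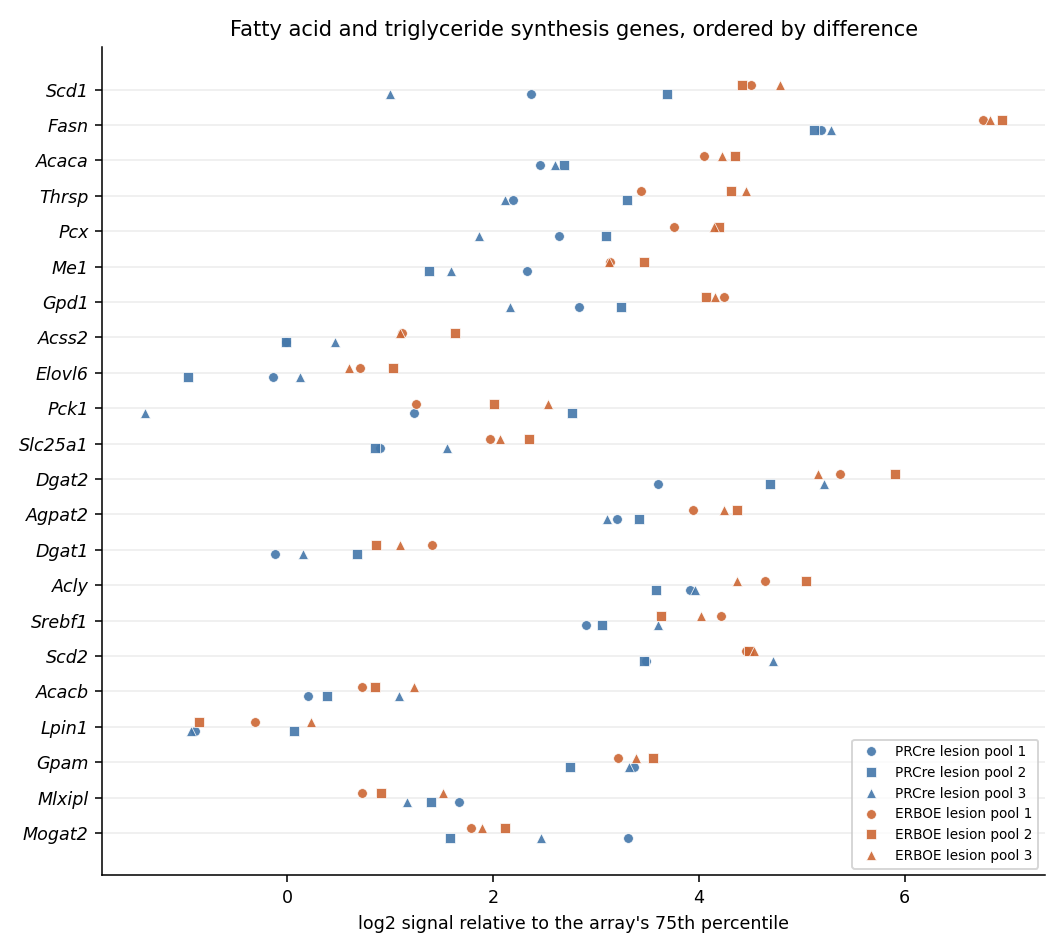
Log2 signal relative to the array's 75th percentile (horizontal axis) of the 22 fatty acid and triglyceride synthesis genes, 1 row a gene, ordered by difference; each point is 1 array, blue for PRCre and orange for ERBOE lesion pools, the shape giving the pool. The groups of Fasn and Acaca are narrow and far apart, and 14 of 22 genes have no overlap.

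Fat cell genes were also higher in ERBOE lesions, but 1 PRCre pool came near the ERBOE pools: the marker medians relative to the PRCre mean were -0.16, 1.09 and -0.86 in PRCre pools 1 to 3 and 1.25, 1.25 and 1.73 in ERBOE pools 1 to 3. Of 23 adipocyte markers tested, 22 read higher, with a median of 1.47, and 8 had an unadjusted p under 0.05. Within slides 1 and 2 the median was 2.13 and 1.12. Lists that share genes with these markers moved likewise: 14 of 15 lipid droplet and lipolysis genes (median 0.85; 7 with p under 0.05; 6 shared with the markers), 15 of 20 uptake, receptor and transcription factor genes (0.89; 8; 7 shared) and 10 of 12 adipokines (1.52; 6; 4 shared). Without PRCre pool 2 the adipokine median was 2.19 and 12 markers had a p under 0.05, and without PRCre pool 3 the marker median was 1.04 and 2 did. Without PRCre pool 1, ERBOE pool 1 or ERBOE pool 3 the marker count was 5, 4 and 3.

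Adipoq, the adiponectin gene that defines fat cells, read 3.03, 4.61 and 1.79 in PRCre and 4.90, 4.67 and 5.35 in ERBOE. Fabp4, the fatty acid binding protein of fat cells, read 4.78, 6.50 and 3.53 against 6.45, 6.55 and 6.66. In both genes PRCre pool 2 stood at the level of ERBOE pools 1 and 2, and PRCre pool 3 was the lowest of the 6. Cfd, the adipsin gene, read 5.90, 7.77 and 5.89 against 8.30, 7.55 and 8.43, so PRCre pool 2 was above ERBOE pool 2. The differences of Adipoq (1.83 ± 1.54) and Cfd (1.57 ± 1.64) were close to their standard errors.

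The median of the synthesis genes left off the marker list did not follow the markers in PRCre pool 2. Over the 19 markers that are not on the synthesis list, the summed signal was 155, 501 and 109 in PRCre pools 1 to 3 and 629.5, 498 and 750.3 in ERBOE pools 1 to 3. Over the 18 synthesis genes that are not on the marker list it was 131, 127 and 144 in PRCre and 279, 316 and 296 in ERBOE. PRCre pool 2 and ERBOE pool 2 thus had nearly the same marker signal, while Fasn, Acaca, Acly and Me1 read 5.12, 2.70, 3.58 and 1.38 in the former and 6.95, 4.35, 5.05 and 3.47 in the latter. Scd1, at 3.70 in PRCre pool 2, was high there with the markers, as were the 4 genes on both lists (Gpd1, Thrsp, Pck1 and Dgat2), whose median was 0.63 in that pool against -0.13 and -0.50 in PRCre pools 1 and 3. This is 1 pool of each genotype, on different slides, and no test was made of it. Fat cells make fatty acids too, and their share in the synthesis signal was not tested.

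**Figure D2:**
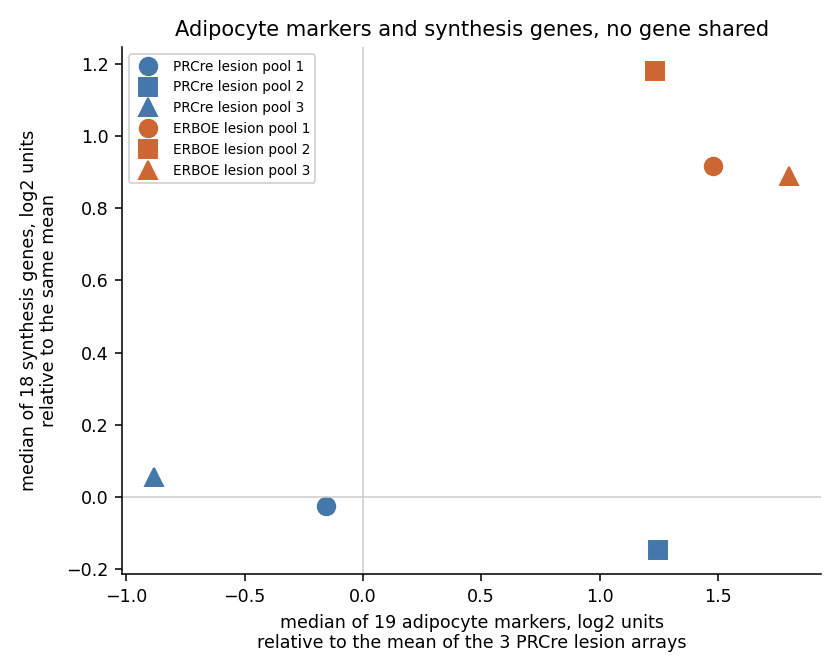
Each point is 1 lesion array: the median over 19 adipocyte markers (horizontal) and over 18 synthesis genes (vertical), with no gene in both, in log2 units relative to the mean of the 3 PRCre arrays. PRCre pool 2 lies at 1.25 on the marker axis, beside the ERBOE pools at 1.23 to 1.80, and at -0.15 on the synthesis axis, where the ERBOE pools lie at 0.89 to 1.18.

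Some genes of fat turnover had groups that did not overlap, as had 9 of the 23 adipocyte markers (5.16% of all features higher in ERBOE). Lipe, Plin4, Plin1 and Cidea are themselves on the marker list, and G0s2 is not. G0s2, an inhibitor of the triglyceride lipase ATGL, read -0.50, -0.21 and -0.68 in PRCre and 2.26, 0.83 and 0.81 in ERBOE (difference 1.76 ± 0.43). Lipe, the gene of hormone-sensitive lipase, read -2.75, -1.33 and -2.97 against -0.74, -1.02 and -0.71 (1.53 ± 0.42). Neither gene had overlapping groups, though PRCre pool 2 was the nearest to ERBOE in both. The lipid droplet coat genes Plin4 and Plin1 differed by 1.76 ± 0.58 and 1.89 ± 0.82, with PRCre pool 2 at 3.79 for Plin4, above ERBOE pool 2 at 3.63. Cidea, a droplet protein of brown fat, was the member that read lower (-0.53 ± 0.82).

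Among receptors, Adipor2, an adiponectin receptor gene, read 4.06, 4.26 and 4.02 in PRCre and 4.87, 5.20 and 4.95 in ERBOE, a difference of 0.89 ± 0.25. Ghr, the growth hormone receptor gene, and Npr3, the natriuretic peptide clearance receptor gene, differed by 0.92 ± 0.28 and 1.34 ± 0.40. Groups were apart for all 3. Pparg, the master transcription factor of fat cells, read 0.38, 1.68 and -0.29 against 1.84, 1.71 and 1.99, where PRCre pool 2 came close to ERBOE pool 2. Insr, the insulin receptor gene, differed by -0.09 ± 0.24.

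Of the secreted products, Sfrp5, a Wnt-binding adipokine, read -2.58, -1.91 and -3.82 in PRCre and -0.95, -0.61 and -1.29 in ERBOE (1.82 ± 0.36, adjusted p = 0.442). Rbp4, the retinol carrier, read 2.51, 2.25 and 0.90 against 2.85, 3.32 and 3.31 (1.27 ± 0.39). No PRCre pool reached an ERBOE pool in either. Itln1, the intelectin gene of omental fat and mesothelium, was well above background in no PRCre pool and in 2 of 3 ERBOE pools. The mean of its 3 ERBOE pools was 5.14-fold above a PRCre floor, which is no strict bound because the remaining pool was dim. For genes dim in every pool of a genotype, each such array's floor was its lowest signal called well above background. The pool's own value was used where that was higher. Such a fold is a bound where every measured pool of the other genotype was well above background. Lep, the leptin gene, differed by 0.22 ± 0.27.

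Lesions were compared with the other tissues through the genotype difference itself. Eutopic endometrium was taken from ERBOE and PRCre mice in which wild-type uterine tissue had been implanted. Those mice were listed as 8 weeks old, and the tissue was taken 4 weeks after surgery. Uterus came from 12-week-old mice without endometriosis. For synthesis genes the median ERBOE minus PRCre difference was 1.00 in lesions, 0.18 in eutopic endometrium and 0.52 in uterus. In a test of lesions minus eutopic endometrium, 0 features passed (0%; 540 at an unadjusted p under 0.05, 1.63%; smallest adjusted p 1.00, limma), and 6 of 22 synthesis genes were among the 540. In lesions minus uterus 0 passed (0%; 2241, 6.75%; smallest adjusted p 0.351), and 4 of 22 were among the 2241. Of 15 lipid droplet genes 5 had such a p in each test, and of 23 adipocyte markers 4 and 3. Me1 had the smallest p of the lesion minus eutopic test (2.06 ± 0.39, unadjusted p 9.92e-05, adjusted p = 1.00), since it read -0.59 in eutopic endometrium. It was followed by A530016L24Rik (3.21 ± 0.72), Vil1, the villin gene (-2.42 ± 0.55), Ereg, the epiregulin gene (3.03 ± 0.69), and Nol3, an apoptosis repressor gene (1.40 ± 0.32). In lesions minus uterus the smallest p belonged to Chrna1 (4.75 ± 0.81), Lpar4, a lysophosphatidic acid receptor gene (2.17 ± 0.38), Serpina3n (5.70 ± 1.01), Npl, a sialic acid lyase gene (3.59 ± 0.66, without ERBOE lesion pool 2, whose spot was an outlier), and Tspan11, a tetraspanin gene (3.52 ± 0.67). For Serpina3n, Npl and Tspan11 the uterus carried most of it, with ERBOE minus PRCre at -4.05, -2.22 and -2.11 there and 1.65, 1.37 and 1.42 in lesions.

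Genes of DNA replication and mitosis read higher in ERBOE lesions, and their medians were also positive in the other tissues. Of 26 replication genes, 26 read higher, by a median of 0.86, and of 28 mitosis and spindle genes 28, by 1.01. Groups did not overlap for 17 genes of each list. At an unadjusted p under 0.05 there were 1 and 0, where the spread comes from all 18 arrays. With the 6 lesion arrays alone there were 17 and 14, against 2.6% of all features higher in that fit. The medians were 1.01 and 0.90 in eutopic endometrium and 0.87 and 1.63 in uterus, and 0 genes of either list had an unadjusted p under 0.05 in the tests of lesions against another tissue.

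The starts of 2 subunits of the MCM helicase, which unwinds DNA at replication forks, are shown with TTTNNCGC, a form of the E2F site, and CCAAT in capitals, both strands searched. They lie at chr1:128359706-128359825, minus strand, and chr8:75109349-75109508, plus strand.
Mcm6: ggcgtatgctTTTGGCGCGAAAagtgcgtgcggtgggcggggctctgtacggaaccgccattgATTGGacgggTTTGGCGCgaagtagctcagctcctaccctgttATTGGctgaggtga
Mcm5: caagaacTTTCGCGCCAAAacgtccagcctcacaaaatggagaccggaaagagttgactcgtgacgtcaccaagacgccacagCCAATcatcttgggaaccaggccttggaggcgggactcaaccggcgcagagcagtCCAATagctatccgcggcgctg
Near its 5′ end each has 2 overlapping E2F matches on opposite strands, printed as 1 run of capitals. TTTNNCGC was in 11 of 24 promoters of 21 replication genes (45.8%), 3 of 26 promoters of 24 mitosis genes (11.5%) and 5.17% of all; CCAAT was in 16 (66.7%) and 21 (80.8%).

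Mcm6 read 3.28, 3.01 and 3.18 in PRCre and 3.62, 4.51 and 3.81 in ERBOE, and Mcm5 0.68, 0.41 and 0.69 against 1.25, 2.18 and 1.36. Mcm3, of the same helicase, read 1.35, 1.28 and 1.27 against 2.07, 2.77 and 2.15 (difference 1.03 ± 0.61). In all 3 the ERBOE pools were above the PRCre pools and ERBOE pool 2 was well above the other two. Uhrf1, which recruits DNA methylation to new strands, read 0.69, 0.05 and 0.91 against 1.71, 2.73 and 1.99 (1.60 ± 0.87). Chaf1a, a chromatin assembly gene, was the replication gene with an unadjusted p under 0.05 (1.32 ± 0.61).

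Of 23 cyclin, E2F and cyclin-dependent kinase regulator genes 19 read higher, with a median of 0.36, and groups were apart for 9, all higher. The median was 0.22 without PRCre pool 1. Ccne1, the cyclin E1 gene that starts S phase, read -0.81, -0.45 and -0.92 in PRCre and 0.58, 1.49 and 0.57 in ERBOE (1.61 ± 0.74), while Cdkn1b, the gene of the inhibitor p27, read 2.35, 2.64 and 2.24 against 1.53, 1.63 and 2.28 (-0.60 ± 0.28). The groups of Ccne1 did not overlap and those of Cdkn1b did. Of mitotic genes, Cdk1, the kinase that starts mitosis, read -1.22, -2.31 and -1.33 against -0.73, 0.28 and -0.69, and Top2a, a topoisomerase gene, 0.39, -0.04 and 0.84 against 1.23, 2.32 and 1.29. Mki67, the Ki-67 gene, differed less (0.58 ± 0.79): 1.59, 1.81 and 1.75 against 1.93, 3.09 and 1.85, with ERBOE pool 2 apart. Within slide 1 the replication and mitosis medians were 1.34 and 1.14, and within slide 2 0.66 and 1.02. Without ERBOE pool 2 the replication and mitosis medians were 0.61 and 0.70.

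**Figure D3:**
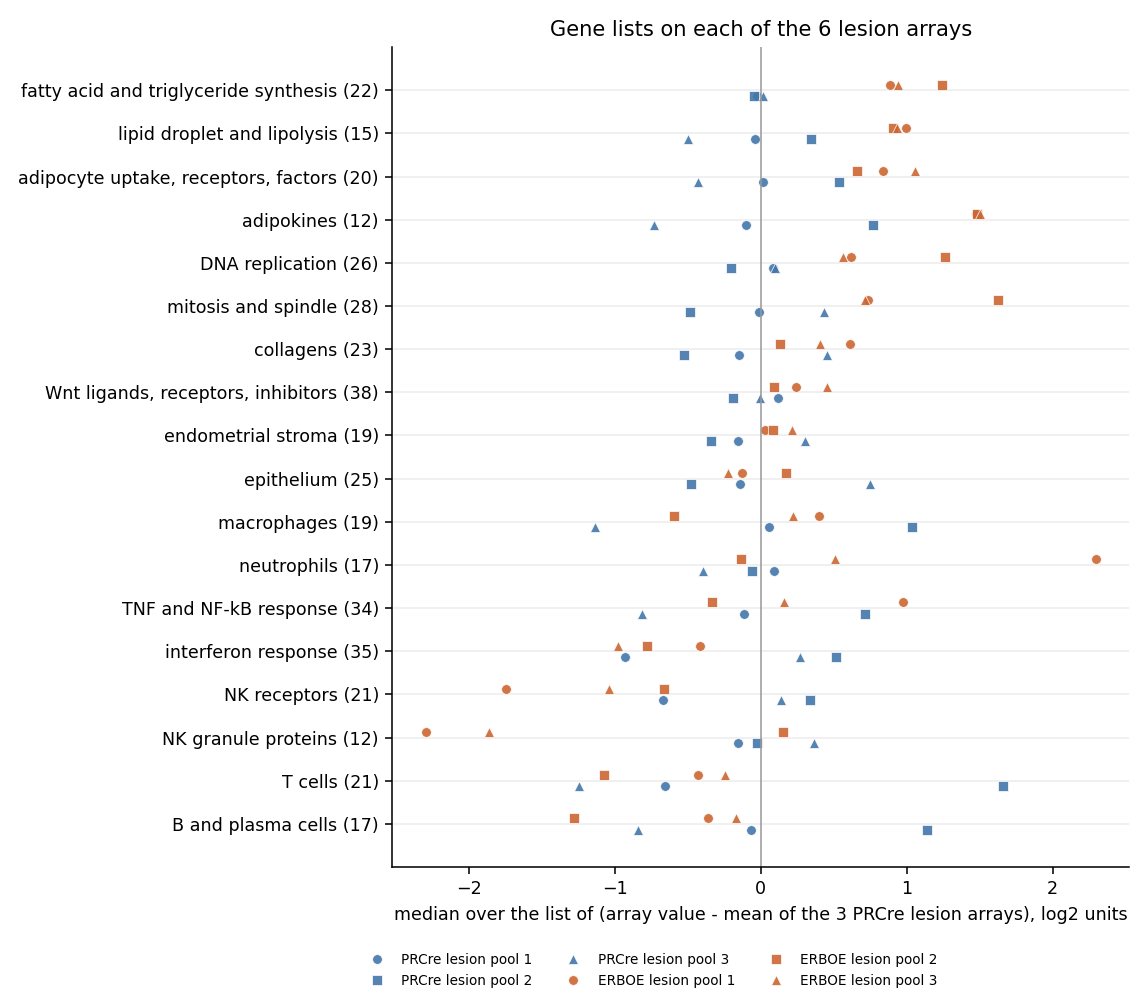
Median over each of 18 gene lists, number of genes in brackets, of the array's value minus the mean of the 3 PRCre lesion arrays, in log2 units; blue points are PRCre and orange points ERBOE lesion pools. The 3 ERBOE pools lie to the right of all PRCre pools for the lipid, replication and mitosis lists, and the T cell and B cell lists have PRCre pool 2 far to the right at 1.66 and 1.14.

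NK cell genes read lower in ERBOE lesions, with overlap between pools. Of 21 receptor genes tested, 19 read lower, with a median of -1.11, and 11 had an unadjusted p under 0.05 in that direction, but groups were apart for 3. Granule genes were lower for 11 of 12 (median -1.39, 4 with p under 0.05) and NK cytokines and regulators for 9 of 12 (-0.66, 6). With normexp background correction the receptor median was -0.56, and within slides 1 and 2 it was -0.62 and -1.18. The granule median was -0.11 within slide 1 and -1.70 within slide 2. ERBOE pool 2, at 0.15 relative to the PRCre mean, was above PRCre pools 1 and 2, at -0.16 and -0.02. Summed signals of the 14 granule genes with a probe did not separate the genotypes. They were 31.4, 40.7 and 52.8 in PRCre pools 1 to 3 and 55.1, 45.0 and 25.7 in ERBOE pools 1 to 3. PRCre pool 1 and ERBOE pool 2 were alike in receptors, both at -0.67 relative to the PRCre mean, and the receptor count of 11 was 6 without PRCre pool 2 or ERBOE pool 1 and 7 without PRCre pool 3. The granule count of 4 was 8 without ERBOE pool 2, 2 without PRCre pool 2 or ERBOE pool 3 and 1 without ERBOE pool 1. The cytokine count of 6 was 2 without PRCre pool 2 or ERBOE pool 1. The granule median was -0.92 without ERBOE pool 1 and -2.11 without ERBOE pool 2, and the cytokine median -0.24 without PRCre pool 2. By pool, the cytokine list medians relative to the PRCre mean were -0.453, 0.839 and -0.685 in PRCre and -0.465, -0.456 and -0.743 in ERBOE. PRCre pools 1 and 3 thus lay near the ERBOE pools.

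Klre1, an NK lectin receptor gene, read -2.47, -1.86 and -1.40 in PRCre and -4.85, -2.40 and -3.91 in ERBOE (-1.81 ± 0.54). Klrk1, which encodes the activating receptor NKG2D, read -0.97, 0.83 and -0.20 against -2.06, -0.82 and -1.68 (-1.41 ± 0.43). In both genes ERBOE pool 2 was above PRCre pool 1, and otherwise the groups were apart. Klrb1a and Klra9, further lectin receptors, differed by -1.11 ± 0.34 and -1.06 ± 0.37; for Klrb1a ERBOE pool 2, at -2.67, was just above PRCre pool 1, at -2.81. Klra9 groups did not overlap.

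Nkg7, a granule membrane gene, read 1.27, 3.43 and 2.87 in PRCre and 0.02, 1.94 and 0.53 in ERBOE (-1.69 ± 0.58). Gzme, a granzyme of decidual NK cells, was well above background in the 3 PRCre pools and in neither ERBOE pool with a usable spot. The spot of ERBOE pool 2 was an outlier, and that pool was entered at its array's lowest signal called well above background. With it so entered Gzme was 7.57-fold lower in ERBOE, which is no bound for the unmeasured pool. Gzmc, another granzyme, read 2.29, -1.51 and 3.35 against -2.64, 3.30 and -2.96, so PRCre pool 2 and ERBOE pool 2 went against their groups. Xcl1, a chemokine of NK cells, read -0.99, -0.60 and 0.29 against -3.61, -0.83 and -2.43 (-1.86 ± 0.55). Ifng, the interferon gamma gene, read -4.15, 0.48 and -2.72 against -5.54, -5.02 and -4.01 (-2.73 ± 0.90), well above background in 3 PRCre pools and 1 ERBOE pool, so the size of the difference is uncertain, with PRCre pool 2 highest and PRCre pool 1 inside the ERBOE range. In eutopic endometrium the receptor median was -0.08 and in uterus -1.03. Of the 21 receptors 6 had an unadjusted p under 0.05 in lesions minus eutopic endometrium (1.63% of all features), and 1 in lesions minus uterus.

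Interferon response genes were lower for 35 of 35, with a median of -0.68, yet 1 had an unadjusted p under 0.05 and groups were apart for 2. Gbp4, a guanylate-binding protein gene, read -0.20, 2.59 and 1.25 in PRCre and -0.68, -0.43 and -0.16 in ERBOE (-1.64 ± 0.64). Cxcl10, an interferon-induced chemokine, read -0.21, 3.13 and 0.02 against -0.34, -0.97 and -0.08. PRCre pool 2 was the highest in both genes and PRCre pool 1 lay near the ERBOE pools. Without PRCre pool 1 the list's median was -1.11 and 14 members had a p under 0.05, and without PRCre pool 2 it was -0.37 and 0 had.

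**Figure D4:**
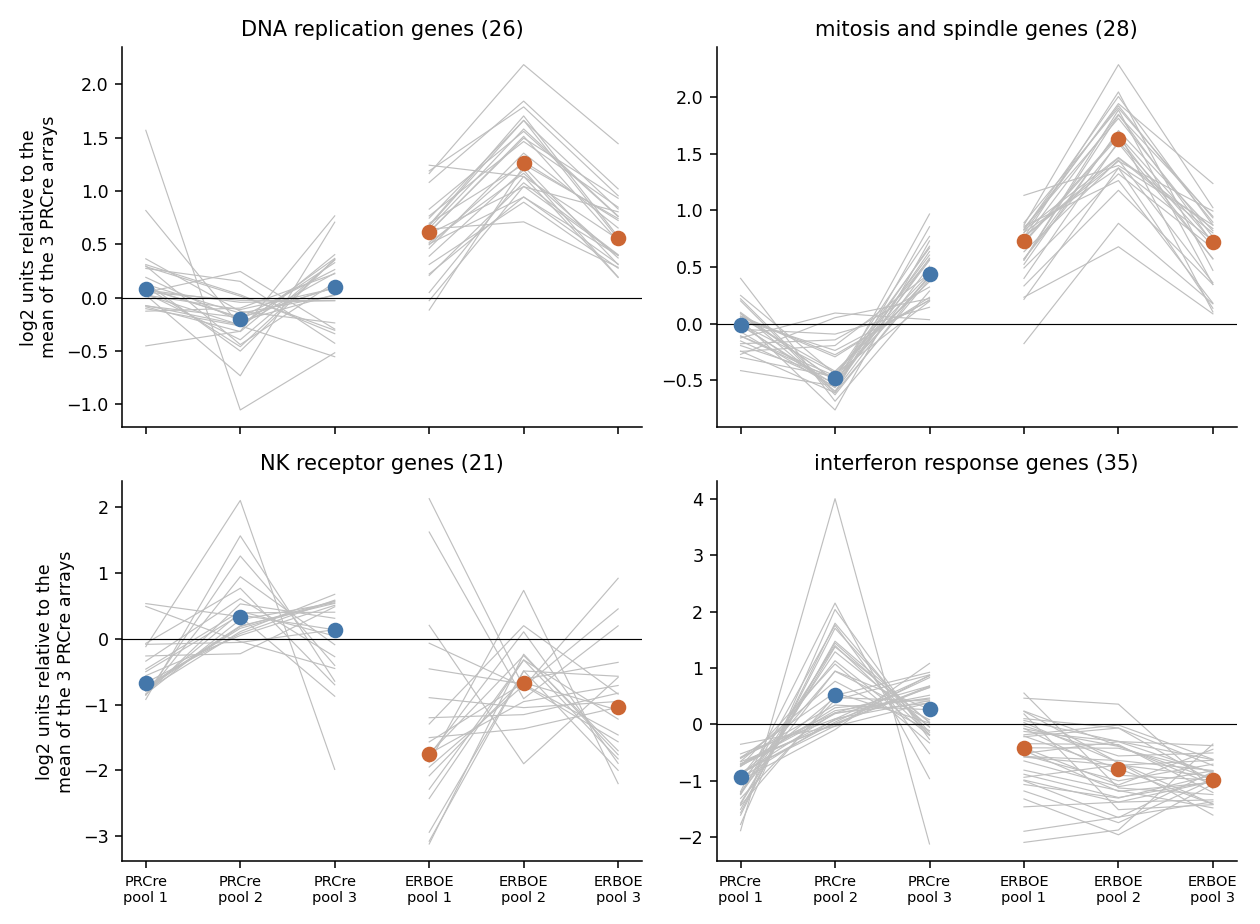
Each grey line is 1 gene and each large point the list median on 1 array, blue for PRCre and orange for ERBOE lesion pools, in log2 units relative to the mean of the 3 PRCre arrays. Replication and mitosis genes stand highest in ERBOE pool 2, at medians of 1.26 and 1.63, and interferon response genes in PRCre pool 1 lie at -0.93, among the ERBOE pools.

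Other leukocyte lists turned on 1 pool. T cell genes were lower for 20 of 21 (median -0.61) and B cell genes for 16 of 17 (-0.60), but without PRCre pool 2 the medians were 0.24 and 0.09. Ccl5, a chemokine of T and NK cells, read 2.35, 7.18 and 3.27 in PRCre and 2.21, 1.77 and 2.46 in ERBOE. Lck, a T cell kinase gene, read 1.32, 3.65 and 1.84 against 0.82, 1.25 and 1.51. PRCre pool 2 was also the pool with the high adipocyte markers among PRCre lesions; the part of attached lymphoid or fat tissue was not tested.

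Neutrophil genes read higher for 14 of 17 (median 0.90), and ERBOE pool 1 carried most of it: without that pool the median was 0.20. Cxcr2, the neutrophil chemokine receptor gene, read -2.84, -3.96 and -4.13 in PRCre and 1.59, -2.19 and -1.83 in ERBOE (2.83 ± 1.22). Its ligand gene Cxcl2 read -3.02, -4.85 and -5.43 against 0.46, -2.80 and -2.30 (2.89 ± 1.21), and was well above background in 1 of 3 PRCre pools. The groups were apart in both, with ERBOE pool 1 above the rest. TNF and NF-kB response genes, among them Cxcl2, were higher for 27 of 34 by a median of 0.31, which was -0.10 without ERBOE pool 1 and -0.04 without PRCre pool 3. Macrophage genes had a median of -0.05, with 8 of 19 higher. That median was 0.46 without PRCre pool 2 and -0.62 without PRCre pool 3. Between 5 and 17 of the 19 read higher when 1 lesion array was left out.

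The interleukin-1 axis had 2 members with an unadjusted p under 0.05. Il1r1, the interleukin-1 receptor gene, read 0.21, -0.22 and -0.34 in PRCre and 1.02, 0.38 and 0.87 in ERBOE (0.87 ± 0.25). Il33, an alarmin of the family, read 1.13, 0.88 and -0.10 against 2.58, 1.48 and 1.65 (1.27 ± 0.50). Neither had overlap, and both were higher in eutopic endometrium (0.85 and 1.61) and uterus (0.60 and 1.55) too. Il1b, the cytokine gene, read 0.61, -0.28 and -1.63 against 3.10, 0.55 and 0.68, with ERBOE pool 1 high. Of 24 inflammasome and interleukin-1 genes 10 read higher, with a median of -0.06.

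Matrix genes read modestly higher. Of 23 collagens 20 were higher (median 0.35, 3 with an unadjusted p under 0.05), of 29 matrix glycoprotein and crosslinking genes 23 (0.47, 4), and of 24 proteases and inhibitors 20 (0.46, 1). Col8a1, a short-chain collagen of vessel walls, read 1.28, 0.13 and 0.75 in PRCre and 4.30, 1.79 and 3.47 in ERBOE (2.47 ± 0.59, adjusted p = 0.707). Cthrc1, a secreted gene of activated fibroblasts, read -1.04, -1.34 and -1.0 against -0.07, 0.12 and 0.12 (1.18 ± 0.26, adjusted p = 0.532). Pools of each genotype were close for Cthrc1 and spread for Col8a1, and neither overlapped. Tnc, the tenascin C gene, differed by 1.94 ± 0.65 and Vcan, the versican gene, by 1.81 ± 0.81, also without overlap. The collagen median was 0.14 without PRCre pool 2 and 0.66 without PRCre pool 3, and the glycoprotein median 0.29 without ERBOE pool 1. Within slide 1 the collagen, glycoprotein and protease medians were -0.16, -0.06 and -0.00, and within slide 2 they were 0.67, 0.54 and 0.42.

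Wnt genes were higher for 26 of 38, by a median of 0.30, with 5 at an unadjusted p under 0.05 and 0 lower, and medians of -0.12 within slide 1 and 0.56 within slide 2; Sfrp5 is one of them. Dkk2, a Wnt inhibitor gene, read -1.73, -1.93 and -1.50 in PRCre and 1.05, -1.44 and 0.81 in ERBOE (1.86 ± 0.53), with ERBOE pool 2 near PRCre. Wnt7a, a ligand of luminal epithelium, read -3.35, -0.77 and 1.17 against 1.85, 0.68 and 2.22 (2.56 ± 1.00), so PRCre pool 3 was above ERBOE pool 2. Fzd4, a receptor gene, differed by 0.84 ± 0.32, without overlap. Foxa2, the transcription factor of uterine glands, read -3.39, -6.66 and -6.87 against -2.98, -1.21 and -2.49 (3.41 ± 0.88); it was well above background in 1 PRCre and 3 ERBOE pools, while Prss28, a gland protease gene, read 1.95, -1.91 and -2.67 against -1.39, 4.66 and -2.57. The median of 10 gland genes, 0.70, was -0.62 without ERBOE pool 2. Of 22 oestrogen-induced uterine genes 11 read higher, and Padi1, an arginine deiminase gene of that list, read 3.85, 4.72 and 6.07 against 2.67, 2.20 and 2.65 (-2.37 ± 0.86).

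The 30 genes of smallest p included several not on those lists, and none passed. Rgs9, a regulator of G protein signalling, read -0.10, -0.01 and 0.03 in PRCre and -2.03, -1.72 and -1.50 in ERBOE. The difference of -1.72 ± 0.23 (adjusted p = 0.0754) came from the brightest of 4 probes, which ranged from -1.72 to -0.62. The pools of each genotype were close and far from the other's. Chrna1, a subunit gene of the acetylcholine receptor of muscle, was well above background in no PRCre pool and in all ERBOE pools, at least 6.47-fold higher, and Zfp819, a zinc finger gene, at least 11.1-fold. Adcyap1, the gene of the neuropeptide PACAP, was at least 7.03-fold higher by its brightest probe over ERBOE pools 1 and 3, its spot in pool 2 being an outlier. Its other kept probe read higher by 2.385 log2 units, against 4.85 for the brightest. Zbtb8b, another zinc finger gene, read -5.25, -4.51 and -4.69 against -1.22, -2.15 and -1.49 (3.20 ± 0.47, adjusted p = 0.0765), and also 2.23 and 2.15 higher in eutopic endometrium and uterus. Clvs2, a clathrin vesicle gene, was well above background in all PRCre and no ERBOE pools and at least 3.28-fold lower, with -1.94 and -2.61 in the other tissues.

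Others of the 30 are enzymes, carriers and signalling genes. Nnmt, which methylates nicotinamide and is abundant in fat and liver, read 1.91, 2.98 and 1.94 in PRCre and 3.80, 3.54 and 3.59 in ERBOE (1.37 ± 0.29). Aldh1l1, a folate enzyme, read 0.50, 1.66 and 0.46 against 2.77, 2.21 and 2.36 (1.57 ± 0.38). In both, PRCre pool 2 was again the PRCre pool nearest to ERBOE. Gys2, the liver glycogen synthase gene, Igfals, the carrier subunit of insulin-like growth factors, and Ahsg, the fetuin A gene, read 2.10 ± 0.47, 1.77 ± 0.36 and 1.91 ± 0.44 higher. Cers3, a ceramide synthase gene, read 2.32 ± 0.48, Acat3, a thiolase gene, 1.77 ± 0.40 and Slc16a12, a creatine transporter gene, 1.26 ± 0.28. Of signalling genes, Ereg differed by 2.27 ± 0.49, Tnfrsf11b, the gene of the RANKL decoy receptor osteoprotegerin, by 1.63 ± 0.37, Etv4, an ETS factor gene, by 1.60 ± 0.38 and Adra1d, an adrenergic receptor gene, by 1.96 ± 0.40. Chl1 and Igsf21, cell adhesion genes, read 2.38 ± 0.55 and 1.83 ± 0.42. Lower in ERBOE were Tmem229a (-3.03 ± 0.55) and Tmem200c (-1.74 ± 0.39), both membrane protein genes, and Efcab3, an EF-hand gene. Efcab3 was lower by at least 1.79-fold by its brightest probe, with no ERBOE pool well above background. Its other kept probe differed by -0.72 log2 units, against -2.622 for the brightest. Gm34979 was at least 1.92-fold higher. Some of these were dim: Ereg was well above background in 1 PRCre and 2 ERBOE pools, Adra1d and Igsf21 in 1 PRCre pool, Gys2, Igfals and Zbtb8b in 2 PRCre pools and Tmem229a in 1 ERBOE pool.

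**Figure D5:**
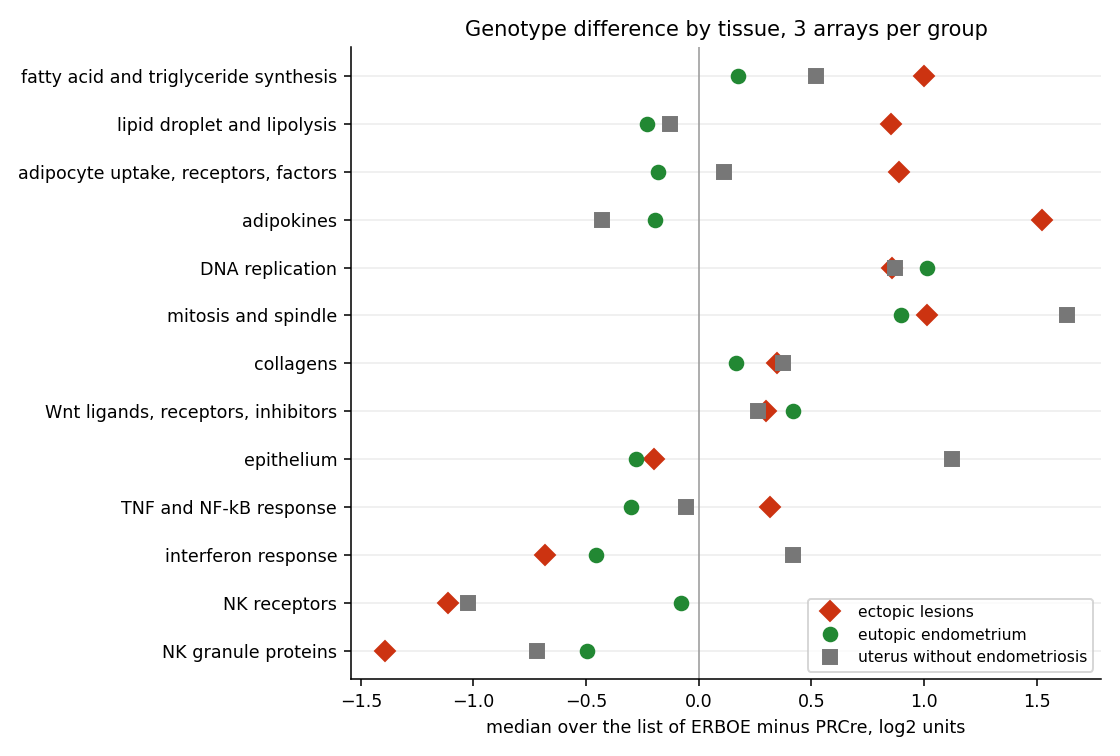
Median over each gene list of the ERBOE minus PRCre difference (log2 units) in ectopic lesions (diamonds), eutopic endometrium (circles) and uterus (squares), 3 arrays per group. Within each lipid list the lesion median lies to the right of the other tissues, with adipokines at 1.52 against -0.20 and -0.43. The replication list lies together at 0.86, 1.01 and 0.87, and the mitosis list lies at 1.01, 0.90 and 1.63.

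Many of the remaining lists had medians near 0. Endometrial stroma (0.02), endothelium (-0.03), apoptosis (0.01), skeletal muscle (0.04), ciliated cells (0.07) and progesterone-induced genes (0.08) lay close to 0. Mesothelium (0.18), angiogenesis factors (0.21), hypoxia and glycolysis genes (0.29) and immediate-early genes (0.33) were somewhat higher, and smooth muscle (-0.26) and dendritic cell genes (-0.35) lower. Several of these turned on 1 pool: smooth muscle was 0.25 without ERBOE pool 2, dendritic cells 0.37 and -0.91 without PRCre pools 2 and 3, mesothelium -0.01 without PRCre pool 3 and immediate-early genes 0.05 without ERBOE pool 1. The progesterone-induced median was -0.31 without ERBOE pool 2 and 0.30 without PRCre pool 3. Between 6 and 14 of its 17 members read higher when 1 lesion array was left out. Of 25 hypoxia and glycolysis genes 22 read higher and 0 had an unadjusted p under 0.05. Pgam1, a glycolytic mutase gene, read 3.73, 3.83 and 3.70 in PRCre and 4.27, 4.37 and 4.18 in ERBOE, apart but by 0.52 ± 0.25. Skeletal muscle genes, the tissue in which Chrna1 is textbook, were higher for 8 of 14.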

How the data were processed

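Total RNA of the pools (25 ng each) was labelled with Cy3 and hybridised to 1-colour Agilent mouse arrays, per the labels' protocols. The deposited scanner files hold intensity per spot from Agilent Feature Extraction 11.0.1.1 on an mm9 grid, per the file headers, already background-subtracted; the authors' deposited value table of log2 values served as an alternative. Control spots and outlier spots were left out, spots of a probe were averaged, and log2 processed intensities were taken relative to each array's 75th percentile. Probes well above background on at least 3 of 18 arrays were kept, and a gene was read from its brightest probe. A group-means model over 6 groups and 18 arrays was fitted with limma 3.58.1 in R 4.3.3 (residual degrees of freedom 12, prior 2.49), with Benjamini-Hochberg adjustment over 33179 features. In simulated data 0.5%, 60% and 79.5% of 200 probes shifted by 1, 2 and 3 log2 units were recovered, so differences near 1 are mostly beyond what this fit can call. The simulation took each feature's spread from all 18 arrays, and a fit on the lesion arrays alone was not simulated. The number of arrays limits the precision. Named genes are the 30 of smallest p, the 5 of smallest p in each test between tissues, and list members. The arrays and gene lists (47 lists, 909 genes, 897 with a probe) were chosen with earlier results of these data known. The files lacked the mean signal, so normexp used the median signal. Promoter letters are from RefSeq, GRCm38.p6. Some list members are not reported here.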

Additional observations from a re-analysis of the deposited data

How the results depend on the processing

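The count of features past an adjusted p of 0.05 in lesions was 0 in the reported fit, 6 with array weights (among them Zbtb8b, Rgs9, Zfp819, Clvs2 and Chrna1), 2 with normexp (Zbtb8b and Rgs9), 1 with a filter on all 6 lesion arrays (Rgs9), 1 with a trended and robust variance (Rgs9), and 0 with the 6 lesion arrays alone, where the smallest adjusted p was 0.746. Leaving out 1 array gave 0 to 3: 1 without PRCre lesion replicate 1 (Vmn1r224) and 3 without PRCre uterus replicate 1 (Zbtb8b, Fasn and Rgs9). The count for lesions minus uterus was 0 to 1 (Klk1b27, without PRCre lesion replicate 3). Replicate numbers did not pair the samples (correlations of -0.06, -0.35 and -0.21), and the fit with the replicate number as a block gave 0 in lesions and 1612 features at an unadjusted p under 0.05. The NK receptor median was -0.56 with normexp, and the adipokine median lay between 1.11 and 2.19 when 1 array was left out. The other 340 medians of the leading lists moved by less than the spread between arrays, which is wide enough that the T cell and B cell medians turned positive without PRCre lesion replicate 2, at 0.24 and 0.09. The TNF and NF-kB median turned negative without ERBOE lesion replicate 1, at -0.10, or PRCre lesion replicate 3, at -0.04. Lesion arrays read above background for 58.3% to 74.1% of probes, which limits dim genes such as Chrna1, Zfp819 and Ereg.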
